A study of Homo sapiens with 12 samples.

Results

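The melanocyte lineage was followed through 10 genes in RNA-seq counts of A375 cells, an established human melanoma cell line with a mutant BRAF kinase. The genes form a list of lineage transcription factors (MITF, SOX10, SOX9 and PAX3), pigment genes (TYR, TYRP1, DCT, PMEL and MLANA) and the coactivator gene PPARGC1A, and all 10 were found among the 58347 genes counted. Of these, 6 had enough counts to enter the test of 16740 genes, and SOX10, TYR, DCT and MLANA did not. The 12 samples fell into 4 treatments with 3 replicates each. Cells received the vehicle dimethyl sulfoxide (DMSO), tretinoin, vemurafenib, or vemurafenib and tretinoin together (the combination), for 8 h, with 5 µM listed for every treatment, the vehicle included. Vemurafenib inhibits mutant BRAF, and tretinoin (all-trans retinoic acid) activates the retinoic acid receptors, which are transcription factors. A single cell line was used and drugs were applied in triplicate, so the p-values measure the spread between these samples, which may be technical.

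Melanocytes are pigment cells that descend from the neural crest. MITF, a basic helix-loop-helix leucine zipper factor, is the central regulator of the lineage. PAX3 and SOX10 act on the MITF promoter, and MITF binds E-boxes, among them the extended form called the M-box, in promoters of the pigment enzymes. Tyrosinase (TYR) starts melanin synthesis, TYRP1 and DCT act later in the pathway, PMEL forms the fibrils on which melanin is laid down, and MLANA (the melanoma antigen MART-1) is a melanosome protein. MITF also acts on PPARGC1A, which encodes the mitochondrial coactivator PGC1 alpha.

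The deposited values were whole-number fragment counts per gene, with library totals between 13510235 and 21534377. Levels below are counts per 1000000 (CPM) of the library size scaled by edgeR's TMM factors, with the mean ± SD of 3 replicates. Fold changes and adjusted p-values came from edgeR's quasi-likelihood test on all 12 samples with Benjamini-Hochberg adjustment over 16740 genes, and a gene was called at an adjusted p under 0.05. The interaction of the drugs was the difference on the log2 scale between the effect of tretinoin on top of vemurafenib and its effect on top of DMSO. Response genes of BRAF signalling followed the labels, and retinoid response genes did so in part. The genes DUSP6, SPRY2, SPRY4, ETV4 and ETV5, which BRAF signalling drives, fell with vemurafenib by between 2.76 and 6.55 on the log2 scale, and DHRS3, a retinoid response gene, rose by 2.91 with tretinoin. Of 2 other retinoid targets, RARB had a log2 difference of 0.82 with tretinoin (adjusted p = 0.101) and CYP26A1 of 0.51 (adjusted p = 0.633). DHRS3 and RARB were also higher with vemurafenib alone. Mean DHRS3 was 20.8 CPM with DMSO, 69.2 with vemurafenib and 402 with the combination, and mean RARB 1.35, 9.47 and 22.1 CPM. TMM factors moved with treatment, from 0.9012 to 0.955 in DMSO and from 1.0527 to 1.0736 in vemurafenib. With the library size alone in their place the median log2 fold change of all tested genes shifted by 0.19 with vemurafenib, 0.16 with the combination and 0.07 with tretinoin. The share of higher genes among those called then went from 50.1% to 71.4%, from 50.5% to 68.2% and from 61.3% to 81.3%. Tretinoin replicate 1 stood furthest from its group, with a chi-square per degree of freedom of 19.1 and 21.8 against the other tretinoin samples, beside 2.56 to 8.38 for all other pairs of replicates. Without it tretinoin against DMSO again called 0 of the 10 genes, with log2 differences of -0.22 for MITF (adjusted p = 0.298), -0.24 for PAX3 (adjusted p = 0.26) and -0.26 for TYRP1 (adjusted p = 0.845). In bulk RNA, fewer expressing cells and less RNA per cell cannot be told apart.

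Promoter sequences of 7 of the genes were taken from RefSeq (GRCh38.p14) as 300 bases from 250 before the start site, with 35116 such windows over all genes. SOX10, SOX9 and PMEL had no entry. Of 8 motifs searched on both strands, 4 promoters are shown because they hold the CRE of MITF's melanocyte start and the M-boxes of the 3 pigment enzymes. Capitals mark the matches. In MITF they are the cyclic AMP response element TGACGTCA. In the others they are the M-box TCATGTG, whose last 6 bases are the E-box CATGTG, or that E-box alone, or the SOX motif AACAAT, each read on either strand. The first is start 3 of 3 of MITF (chr3:69936342-69936641, plus strand), then TYRP1 (chr9:12693135-12693434, plus strand), start 2 of 2 of DCT (chr13:94479633-94479932, minus strand) and TYR (chr11:89177625-89177924, plus strand).
MITF, start 3: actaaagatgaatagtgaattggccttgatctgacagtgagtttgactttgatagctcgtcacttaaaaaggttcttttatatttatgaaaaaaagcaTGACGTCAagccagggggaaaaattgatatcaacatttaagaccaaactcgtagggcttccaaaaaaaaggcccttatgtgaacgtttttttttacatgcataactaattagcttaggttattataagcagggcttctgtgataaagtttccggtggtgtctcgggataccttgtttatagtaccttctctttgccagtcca
TYRP1: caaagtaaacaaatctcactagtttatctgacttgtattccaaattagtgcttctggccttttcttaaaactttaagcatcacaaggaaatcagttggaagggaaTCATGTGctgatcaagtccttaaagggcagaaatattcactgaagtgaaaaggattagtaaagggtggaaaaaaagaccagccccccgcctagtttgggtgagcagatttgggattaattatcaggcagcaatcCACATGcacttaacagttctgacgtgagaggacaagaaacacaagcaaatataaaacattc
DCT, start 2: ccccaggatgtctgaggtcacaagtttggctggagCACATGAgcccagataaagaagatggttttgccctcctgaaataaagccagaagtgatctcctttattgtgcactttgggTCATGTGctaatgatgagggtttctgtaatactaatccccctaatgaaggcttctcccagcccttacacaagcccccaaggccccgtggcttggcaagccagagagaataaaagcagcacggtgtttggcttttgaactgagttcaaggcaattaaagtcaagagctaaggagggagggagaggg
TYR: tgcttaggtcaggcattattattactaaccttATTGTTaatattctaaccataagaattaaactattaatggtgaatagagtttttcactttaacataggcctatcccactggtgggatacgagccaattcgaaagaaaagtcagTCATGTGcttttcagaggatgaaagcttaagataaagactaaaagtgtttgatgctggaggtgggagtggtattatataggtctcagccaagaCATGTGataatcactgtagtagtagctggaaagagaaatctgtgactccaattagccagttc

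With the start base as 0, the M-box lay at -145 to -139 in TYRP1, at -135 to -129 in DCT (with another on the other strand at -215 to -209) and at -105 to -99 in TYR. It was found in 2.92% of all promoter windows. The shorter E-box CATGTG, held by 11.1% of windows and by every M-box, occurred alone in TYR at -12 to -7, on the other strand of TYRP1 at -11 to -6, and in start 2 of PPARGC1A at -129 to -124. The CRE of MITF lay at -152 to -145, and 1.85% of windows held one. Start 1 of PPARGC1A had the palindromic E-box CACGTG at -123 to -118 (7.26% of windows). The window of that start (chr4:24472856-24473155) lies outside the positions given for the gene below. AACAAT (10.1% of windows) occurred on the other strand of TYR at -218 to -213 and of start 2 of PPARGC1A at -28 to -23, and AACAAAG (5.2%) in the latter promoter at -175 to -169. For the retinoic acid response elements DR5 and DR2, only exact direct repeats of AGGTCA spaced by 5 or 2 bases were searched. They matched in none of the 7 genes. These exact repeats occurred in only 2 (DR5, 0.0057%) and 1 (DR2, 0.00285%) of the 35116 windows. The search could therefore hardly have found one here, and nothing is concluded about retinoic acid response elements in these genes. MLANA, PAX3, the other starts of MITF and start 1 of DCT held none of the 8 motifs. The window of start 1 of DCT (chr13:94549357-94549656) also lies outside the positions given for its gene. A match is a run of letters, not a measured binding site.

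**Figure D1:**
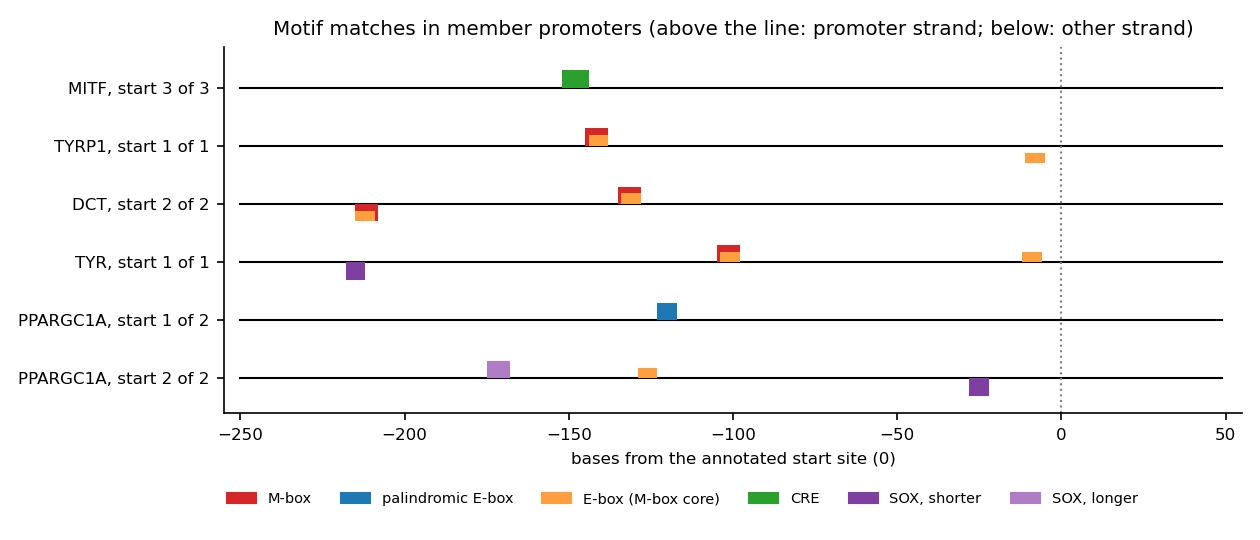
Motif matches in the promoters with at least 1 match, by distance in bases from the annotated start (dotted line at 0), with boxes above the line on the promoter strand and below it on the other strand. M-boxes (red) appear in TYRP1, DCT and TYR, and the CRE (green) in MITF alone among the promoters drawn.

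Across the 10 genes, vemurafenib raised MITF and TYRP1, and so did the combination. DCT had 0 to 3 counts per library without vemurafenib and reached 6 to 18 counts per library with it, but stayed below the count filter. SOX10 was listed at 0 in every library, and TYR at 0 in all but 1. Levels per kilobase of exon, which can be compared between genes, ordered the DMSO samples from MITF at 2.45 ± 0.262 CPM per kb to PAX3 at 1.52 ± 0.0226, PMEL at 0.304 ± 0.0944, SOX9 at 0.235 ± 0.123, TYRP1 at 0.112 ± 0.0261, MLANA at 0.0628 ± 0.0396, PPARGC1A at 0.0257 ± 0.0212 and DCT at 0.00299 ± 0.00517, with SOX10 and TYR at 0 (SD, n = 3). The samples of PMEL and SOX9 overlapped, as did those of DCT and the genes at 0, while each other gene was apart from the next in order except MLANA and PPARGC1A, which overlapped. Leaving SOX10 aside, the defining markers were thus present at very unequal levels in this melanoma line. The part of the gene models in the 0 of SOX10, described below, was not tested. S100B, another marker of the lineage, lay between 6.16 and 10.4 CPM in all 12 samples.

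**Figure D2:**
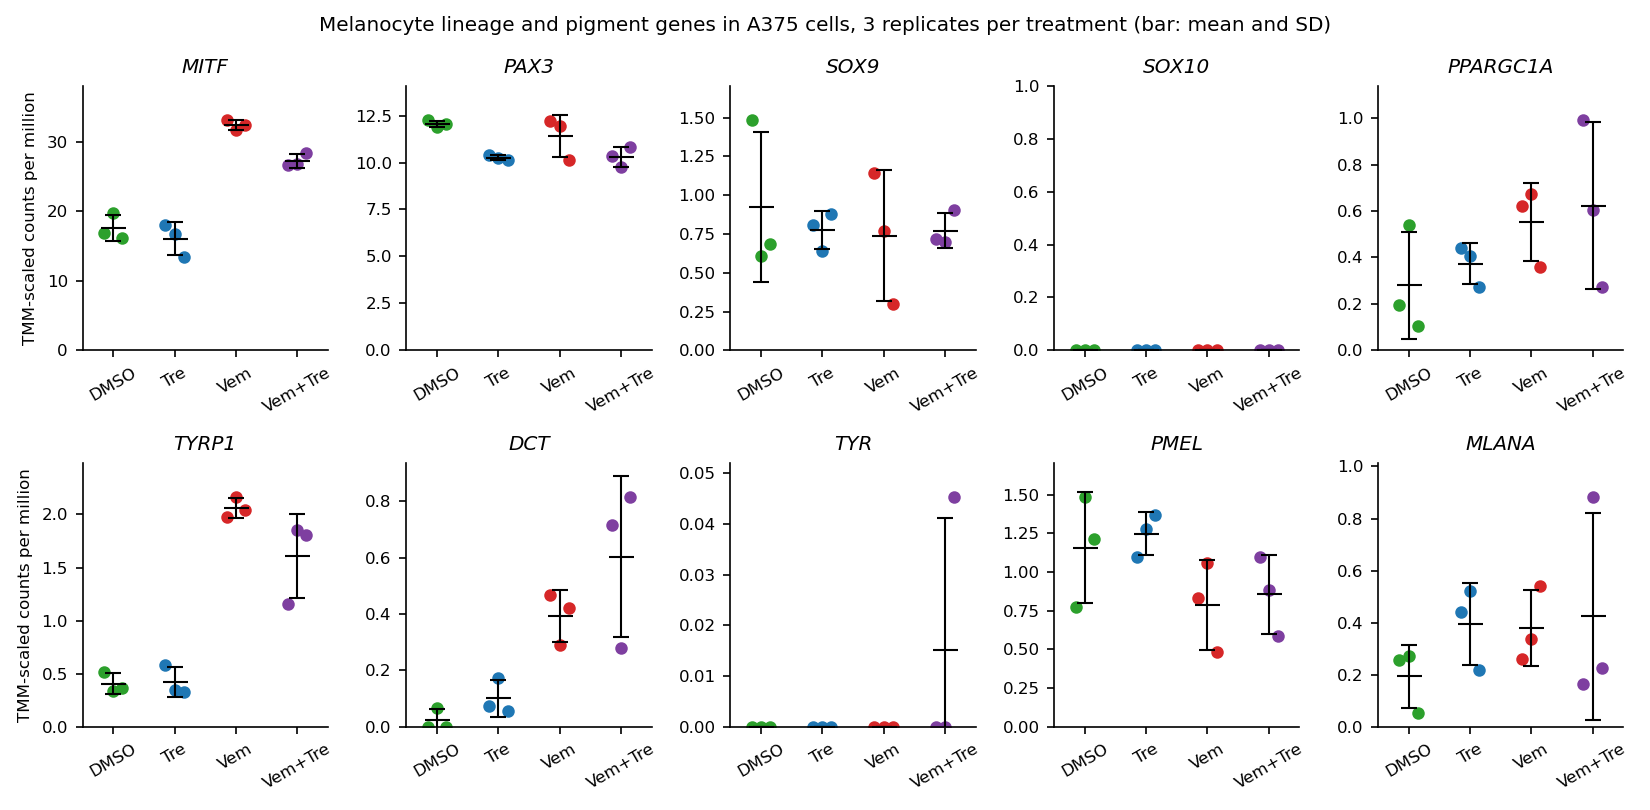
TMM-scaled CPM of the 10 genes, 1 point per sample, with the mean and SD of 3 replicates per treatment (Tre, tretinoin; Vem, vemurafenib; Vem+Tre, combination); the axis differs between genes. MITF sits between 31.7 and 33.1 with vemurafenib and between 16.2 and 19.7 with DMSO, and SOX10 is at 0 throughout.

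MITF (chromosome 3, 69739435 to 69968337, plus strand) was the most expressed of the genes per length in every group. Its level was 16.8, 19.7 and 16.2 CPM in the DMSO samples, and 18.0, 16.8 and 13.4 CPM in the tretinoin samples. With vemurafenib it was 33.1, 31.7 and 32.4 CPM, and with the combination 26.7, 26.8 and 28.5 CPM. All 6 samples with vemurafenib were above all 6 without it, and the combination samples lay below the vemurafenib samples without overlap. Relative to DMSO the gene rose by 0.88 ± 0.10 on the log2 scale with vemurafenib (SE, adjusted p = 1.3e-06), which is 1.85-fold, and by 0.64 ± 0.10 with the combination (adjusted p = 4.8e-05), which is 1.56-fold. Tretinoin alone gave a log2 difference of -0.13 ± 0.11 (adjusted p = 0.5). The combination against tretinoin was higher by 0.77 ± 0.10 (adjusted p = 8e-06).

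Whether tretinoin lowered MITF on top of vemurafenib depended on the fit. The log2 difference between the combination and vemurafenib was -0.24 ± 0.10 with a 95% interval from -0.44 to -0.05 before adjustment, and an adjusted p of 0.221. A fit of those 2 groups alone gave -0.24 ± 0.07 and an adjusted p of 0.0427, and over 14 alternatives the adjusted p ranged from 0.0427 to 0.541 with 1 called. The interaction of the drugs on MITF was -0.11 ± 0.15 (adjusted p = 0.738).

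Gene counts do not separate the promoters of MITF, so the level above is the sum over its forms, the melanocyte form from start 3 included. Genes were also ranked by the Euclidean distance of their log2 differences from DMSO in the 3 treatments to those of MITF. The search covered 15016 tested genes with a symbol and left out LINC genes and clone-type names. The nearest were TUBB4A (distance 0.064), SERTAD3 (0.067), HEATR5A (0.071) and KCTD7 (0.082). TUBB4A, a beta tubulin, had log2 differences of -0.17 with tretinoin, 0.92 with vemurafenib and 0.68 with the combination. No such neighbours could be named for SOX10, which has no fitted change.

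Of the factors upstream of MITF, PAX3 was well measured and did not pass the test in any comparison with DMSO. PAX3 (chromosome 2, 222199888 to 222298996, minus strand), the paired box factor of early melanoblasts, was at 12.2, 11.9 and 12.03 CPM with DMSO, and at 10.4, 10.2 and 10.1 CPM with tretinoin. It was at 12.2, 11.9 and 10.2 CPM with vemurafenib, and at 10.3, 9.76 and 10.8 CPM with the combination. The tretinoin and combination samples all lay below the DMSO samples, while the vemurafenib samples overlapped them. The log2 differences from DMSO were -0.23 ± 0.10 with tretinoin (adjusted p = 0.179), -0.07 ± 0.10 with vemurafenib (0.559) and -0.23 ± 0.10 with the combination (0.065), and with the library size alone as scaling the vemurafenib value became 0.12.

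SOX9 (chromosome 17, 72121020 to 72126420, plus strand), a SOX factor of the neural crest, had few counts. They were 23, 9 and 13 with DMSO, and 11, 11 and 16 with tretinoin. They were 22, 16 and 5 with vemurafenib, and 13, 15 and 20 with the combination. All groups overlapped. The log2 difference was -0.24 ± 0.43 with tretinoin (adjusted p = 0.779), -0.28 ± 0.42 with vemurafenib (adjusted p = 0.595) and -0.24 ± 0.41 with the combination (adjusted p = 0.649), with 95% intervals that all reached beyond 0.5 in both directions. Without DMSO replicate 1, which held 23 counts, these values turned to 0.25, 0.20 and 0.25.

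SOX10 (chromosome 22, 37970686 to 37987422, minus strand), the SOX factor that drives MITF in melanocytes, was listed at 0 in all 12 libraries. The limit that a count of 0 allows, 3 counts per library, is between 0.136 and 0.220 CPM and covers counting error only. In GENCODE 29, 89 of its 3710 exon bases overlap POLR2F on the opposite strand. POLR2F, an RNA polymerase II subunit gene that every cell uses, had 19 to 116 counts per library, and its fellow POLR2I 53 to 115, against 695 to 7449 for the other 10 POLR2 subunit genes. Fragments over exons of more than 1 gene were assigned to none and strand was ignored, on GENCODE 27 gene models that were not used here. The part of the gene models in the 0 of SOX10 was not tested.

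Of the pigment enzymes, TYRP1 alone had enough counts for the test. It passed the count filter only through the samples with vemurafenib, where it was high, and without that rise it would not have been tested. A fit without a count filter also called it, with vemurafenib (log2 fold change 2.31, adjusted p = 5.9e-09) and with the combination (1.98, adjusted p = 1.7e-06). TYRP1 (chromosome 9, 12685439 to 12710290, plus strand), which stabilises tyrosinase and acts on melanin intermediates, had 8, 5 and 7 counts with DMSO and 8, 6 and 6 with tretinoin. It had 38, 45 and 34 counts with vemurafenib and 21, 40 and 40 with the combination. Every sample with vemurafenib was above every sample without it, at 1.97, 2.17 and 2.04 CPM with vemurafenib and 1.16, 1.86 and 1.81 with the combination against 0.338 to 0.516 with DMSO. TYRP1 rose by 2.32 ± 0.32 on the log2 scale with vemurafenib (5.01-fold, adjusted p = 1.1e-05) and by 1.98 ± 0.33 with the combination (3.94-fold, adjusted p = 7.3e-05), and the combination was higher than tretinoin by 1.97 ± 0.33 (adjusted p = 9e-05). The log2 difference was 0.01 ± 0.44 with tretinoin alone (adjusted p = 0.998), -0.35 ± 0.25 between the combination and vemurafenib (adjusted p = 0.617) and -0.36 ± 0.50 for the interaction (adjusted p = 0.764). Of its exon bases in GENCODE 29, 102 overlap LURAP1L-AS1 on the opposite strand, and the M-box of its promoter is printed above.

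DCT (chromosome 13, 94436808 to 94479682, minus strand), the dopachrome tautomerase, had 0, 1 and 0 counts with DMSO and 1, 3 and 1 with tretinoin. It had 9, 6 and 7 counts with vemurafenib and 13, 6 and 18 with the combination. No sample without vemurafenib reached the lowest sample with it. The summed counts, 22 with vemurafenib and 37 with the combination against 1 with DMSO, gave ratios per library size of 19.1 (95% exact interval 3.09 to 789) and 29.5 (4.98 to 1196), which cover counting error only. In the fit without a count filter, on 41806 genes, DCT was called with vemurafenib (log2 fold change 3.84, adjusted p = 0.00089), with the combination (4.48, adjusted p = 1.3e-05) and in the combination against tretinoin (2.49, adjusted p = 0.00272). A fitted value against 1 count depends on the fit's prior count.

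TYR (chromosome 11, 89177452 to 89295759, plus strand) was listed at 0 in 11 libraries and at 1 count in combination replicate 3, so that no change was detectable at this depth. It shares 409 bases at 98.8% identity with its pseudogene copy TYRL, which had 0 to 1 counts, and fragments that match both may be lost. No other of the 10 genes shared 150 or more exon bases at 98% identity with another gene. The promoter of TYR holds an M-box like those of TYRP1 and DCT.

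The melanosome proteins showed no called change. PMEL (chromosome 12, 55954105 to 55973317, minus strand) had 12, 22 and 23 counts with DMSO and 15, 22 and 25 with tretinoin. It had 16, 22 and 8 counts with vemurafenib and 20, 19 and 13 with the combination. All treatments overlapped DMSO, with log2 differences of 0.12 ± 0.33 with tretinoin (adjusted p = 0.869), -0.52 ± 0.35 with vemurafenib (0.225) and -0.45 ± 0.34 with the combination (0.286). Of its exon bases, 89 overlap CDK2 on the opposite strand. MLANA (chromosome 9, 5890802 to 5910606, plus strand) had 4, 4 and 1 counts with DMSO, 6, 9 and 4 with tretinoin, 5, 7 and 9 with vemurafenib, and 3, 19 and 5 with the combination. These groups overlapped too, and combination replicate 2 held 19 of the 27 combination counts. The ratios of its summed counts to DMSO were 2.12 with tretinoin (95% exact interval 0.913 to 5.32), 2.03 with vemurafenib (0.891 to 5.03) and 2.39 with the combination (1.09 to 5.78), and the fit without a filter called none of them (adjusted p = 0.679, 0.406 and 0.209).

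PPARGC1A (chromosome 4, 23755041 to 23904089, minus strand) had more counts in most samples with vemurafenib but did not pass the test. Its counts were 3, 8 and 2 with DMSO and 6, 7 and 5 with tretinoin. They were 12, 14 and 6 with vemurafenib and 18, 13 and 6 with the combination. The 8 counts of DMSO replicate 2 and the 6 counts in replicate 3 of vemurafenib and of the combination made the groups overlap. The gene passed the count filter only through samples with vemurafenib, and its fitted differences carry that selection. The log2 difference was 0.46 ± 0.65 with tretinoin (adjusted p = 0.719), 1.06 ± 0.58 with vemurafenib (0.139) and 1.17 ± 0.57 with the combination (0.0941). Without DMSO replicate 2 the gene was called with vemurafenib (1.90 ± 0.69, adjusted p = 0.0346) and the combination (2.01 ± 0.68, adjusted p = 0.0233), and without combination replicate 3 in the combination as well (1.53 ± 0.55, adjusted p = 0.0317).

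Counted together, 2 of the 6 tested genes were higher with vemurafenib and none lower, against 26.4% higher and 26.3% lower of all tested genes. With the combination 2 were higher and none lower, against 27.1% and 26.5%. In the combination against tretinoin 2 were higher and none lower, against 24.1% and 25%. Tretinoin against DMSO changed 0 of the 6 by edgeR (1 at an unadjusted p under 0.05, PAX3, and 0 by DESeq2), against 3.48% higher and 2.2% lower. The combination against vemurafenib changed 0 (1 unadjusted, MITF, and 0 by DESeq2) against 4.47% in either direction, and the interaction changed 0 (0 unadjusted and 0 by DESeq2) against 0.806%. The median log2 difference of the 6 was 0.41 with vemurafenib, 0.21 with the combination and -0.06 with tretinoin, beside 0.02, 0.03 and 0.01 over all tested genes. The 2 calls with vemurafenib thus stand beside a background in which many genes were called, and the comparisons with DMSO share their control samples. TYRP1 and PPARGC1A passed the count filter only through samples with vemurafenib. Neither could readily be called lower there, so the counts and medians for vemurafenib and the combination lean upward.

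**Figure D3:**
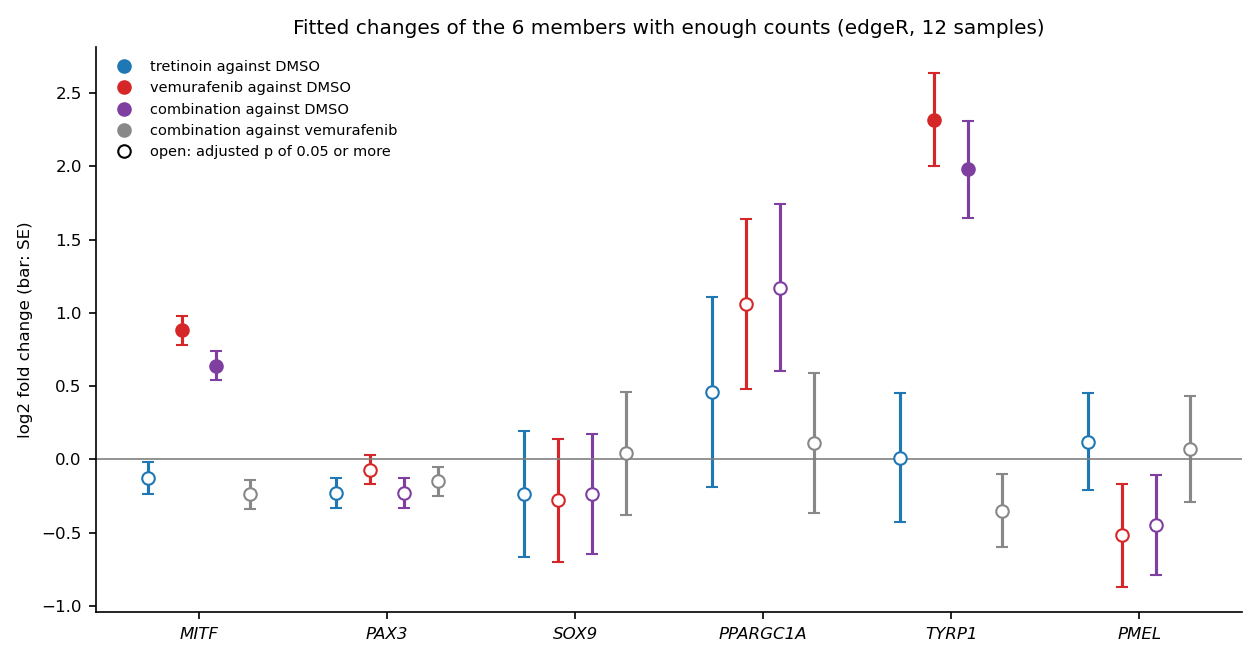
Log2 fold changes with their SE for the 6 tested genes in 4 comparisons; filled points have an adjusted p under 0.05. Filled points are MITF (0.88 and 0.64) and TYRP1 (2.32 and 1.98), each with vemurafenib and with the combination against DMSO.

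The lists that follow are described by their counts and medians, to be read beside the shares of all tested genes called: 26.4% higher and 26.3% lower with vemurafenib, 27.1% and 26.5% with the combination, and 3.48% and 2.2% with tretinoin. At most 3 called genes per direction and comparison are named, so a gene named for some treatments may have changed with others too. Other regulators and receptors of the lineage had calls in both directions, and 11 of 13 were tested. With vemurafenib 6 rose and 3 fell (median log2 difference 0.29), with the combination 5 rose and 2 fell (0.25), and with tretinoin 2 rose and 1 fell (-0.03). The 3 lower of 11 with vemurafenib are about the share of all tested genes (26.3%). FOXD3, a forkhead factor of the neural crest, rose by 3.61 on the log2 scale with vemurafenib (adjusted p = 1.8e-14) and 3.79 with the combination (9.2e-15), from 5.83 ± 0.965 CPM in DMSO to 70.5 ± 4.38 and 80.4 ± 4.89 (SD, n = 3); 179 of its exon bases overlap FOXD3-AS1. SNAI2, a zinc finger factor of melanoblast migration, rose by 3.54 and 3.34, and ERBB3, a neuregulin receptor, by 1.28 and 1.13. POU3F2 (BRN2), a POU factor known for its inverse relation to MITF, was lower by -1.83 with vemurafenib, -2.11 with the combination and -0.68 with tretinoin. LEF1, the Wnt effector, was lower by -0.57 and -0.72, and TBX2 by -0.51 with vemurafenib. With tretinoin EDNRB, the endothelin receptor of melanoblasts, rose by 0.60 (adjusted p = 0.0263) and SNAI2 by 0.93 (adjusted p = 0.045), which was called in 5 of 14 alternatives.

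Relatives of the factors by family gave 8 tested of 9. With vemurafenib 6 of the 8 rose and none fell (median 1.31), beside 26.4% and 26.3% of all tested genes. With the combination 3 rose and 1 fell (median 0.33), not far from the 27.1% and 26.5% of all tested genes, and with tretinoin 0 were called by edgeR or DESeq2, with 2 at an unadjusted p under 0.05. SOX2, a stem cell factor, rose by 3.33 with vemurafenib and 3.05 with the combination, from 10.9 ± 1.13 CPM to 110 ± 5.53 and 90.3 ± 8.17. SOX4 rose by 2.08 and 2.68, SOX6 by 1.81 with vemurafenib, and TFEC, a relative of MITF with 8 counts over the DMSO samples, by 1.69 with the combination (adjusted p = 0.0161). Combination replicate 1 held 16 of its 33 combination counts, without that sample the value was 1.22 (adjusted p = 0.0949), and the call was lost in 3 of 12 alternatives. TFEC passed the count filter only through samples with vemurafenib, so it could not readily be called lower there. Its fitted values carry that selection, and so do the counts and medians of this list for vemurafenib and the combination. SOX8, which is of the same SOX group as SOX9 and SOX10, was lower by -0.86 with the combination.

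The melanosome list (biogenesis and transport) had 22 tested of 27. Its counts were 9 higher and 5 lower with vemurafenib and with the combination alike, with medians of -0.03 and 0.07, and 0 higher and 2 lower with tretinoin (0.01). Beside the 26.4% higher and 26.3% lower of all tested genes with vemurafenib, and 27.1% and 26.5% with the combination, the 5 lower of 22 are near the background. GPNMB, a melanosome glycoprotein related to PMEL, rose by 0.93 with vemurafenib (adjusted p = 2.7e-09) and by 0.86 with the combination, from 117 ± 1.44 CPM to 223 ± 0.0651 and 213 ± 10.5. LYST, of lysosomal trafficking, rose by 0.50 and 0.56 and HPS4, of the BLOC-3 complex, by 0.45 and 0.46. MLPH, which links melanosomes to myosin, was lower by -2.83 and -2.49, from 2.97 ± 0.727 CPM to 0.410 ± 0.0624 and 0.514 ± 0.118. It had 7, 8 and 8 counts with vemurafenib and 8, 14 and 10 with the combination. MLPH passed the count filter through the DMSO and tretinoin samples, where it was high, and its fitted values carry that selection. A fit without a count filter also called it (adjusted p = 2.1e-17 with vemurafenib and 3.1e-15 with the combination). RAB38, of melanosome cargo delivery, was lower by -0.47 with tretinoin and -0.64 with the combination. Its mean with vemurafenib was lower than with DMSO too, at 13.2 CPM against 17.9, beside 12.95 with tretinoin and 11.5 with the combination. HPS6 was lower by -0.29, -0.34 and -0.42 with tretinoin, vemurafenib and the combination, and MFSD12 by -0.33 with vemurafenib. The tretinoin call of HPS6 was lost in 5 of 14 alternatives (adjusted p up to 0.142). The vemurafenib calls of HPS6 and MFSD12 were lost with the library size alone (both -0.14).

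Known MITF targets outside pigment were called with vemurafenib about as often as all tested genes. Of 27 listed, 21 were tested, and with vemurafenib 5 rose and 6 fell (median 0.03), with the combination 6 rose and 8 fell (-0.04) and with tretinoin 1 rose and none fell (-0.03). The shares of all tested genes were 26.4% higher and 26.3% lower with vemurafenib and 27.1% and 26.5% with the combination. SORT1 (sortilin) rose by 1.02 and 0.79 and ASAH1, the acid ceramidase, by 0.60 and 0.74 with vemurafenib and the combination, and the phosphatase PPM1H by 1.09 with vemurafenib. PPM1H was at 3.73 CPM with DMSO, 8.10 with vemurafenib and 7.49 with the combination. CDK2, the S phase kinase, was lower by -1.10 and -1.12, IVNS1ABP by -0.61 and -0.92 and the adaptor SHC4 by -0.95 and -1.75. GPRC5B, an orphan receptor, rose by 1.51 with tretinoin (adjusted p = 9.4e-07) and 1.82 with the combination. In GENCODE 29, 654 exon bases of CDK2 and 1777 of GPRC5B lie opposite exons of other genes.

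Partners of PPARGC1A in mitochondrial biogenesis were lower with vemurafenib wherever they passed the test. All 10 were tested. With vemurafenib 7 fell and none rose, and with the combination 8 fell and none rose, with a median of -0.69 in both, beside 26.3% and 26.5% lower of all tested genes, while tretinoin changed 0 by edgeR or DESeq2 (2 at an unadjusted p under 0.05). PPARGC1B, the sister coactivator, was at 17.7 ± 0.903 CPM with DMSO, 6.38 ± 0.668 with vemurafenib and 6.47 ± 0.244 with the combination, and was lower by -1.48 (adjusted p = 4.4e-09) and -1.46. PPRC1, another coactivator of the family, was lower by -0.98 and -1.07. Of the mitochondrial DNA factors, TFB2M was lower by -0.83 with vemurafenib and TFAM by -0.65 with the combination. Both had lower means in both treatments. TFB2M was at 109.9 CPM with DMSO, 61.65 with vemurafenib and 66.1 with the combination, and TFAM at 111.3, 73.9 and 71 CPM.

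Genes known for melanomas with low MITF formed the last list, with all 13 tested. With vemurafenib 11 fell and 1 rose (median -0.51), beside 26.3% lower and 26.4% higher of all tested genes, with the combination 9 fell and 2 rose (-0.63), beside 26.5% and 27.1%, and with tretinoin 1 fell and 3 rose (0.04). FOSL1, an AP-1 subunit, was lower by -3.27 and -3.06, THBS1 (thrombospondin) by -1.35 and -2.08 and ZEB1, the mesenchymal zinc finger factor, by -0.97 and -1.15 with vemurafenib and the combination. TGFBI, a matrix protein, rose by 0.32 and 0.40 and also by 0.44 with tretinoin. With tretinoin LOXL2 rose by 0.57, TNC by 0.41 (adjusted p = 0.0238, called in 9 of 14 alternatives), and THBS1 was lower by -0.71, and LOXL2 rose by 0.32 with the combination.

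**Figure D4:**
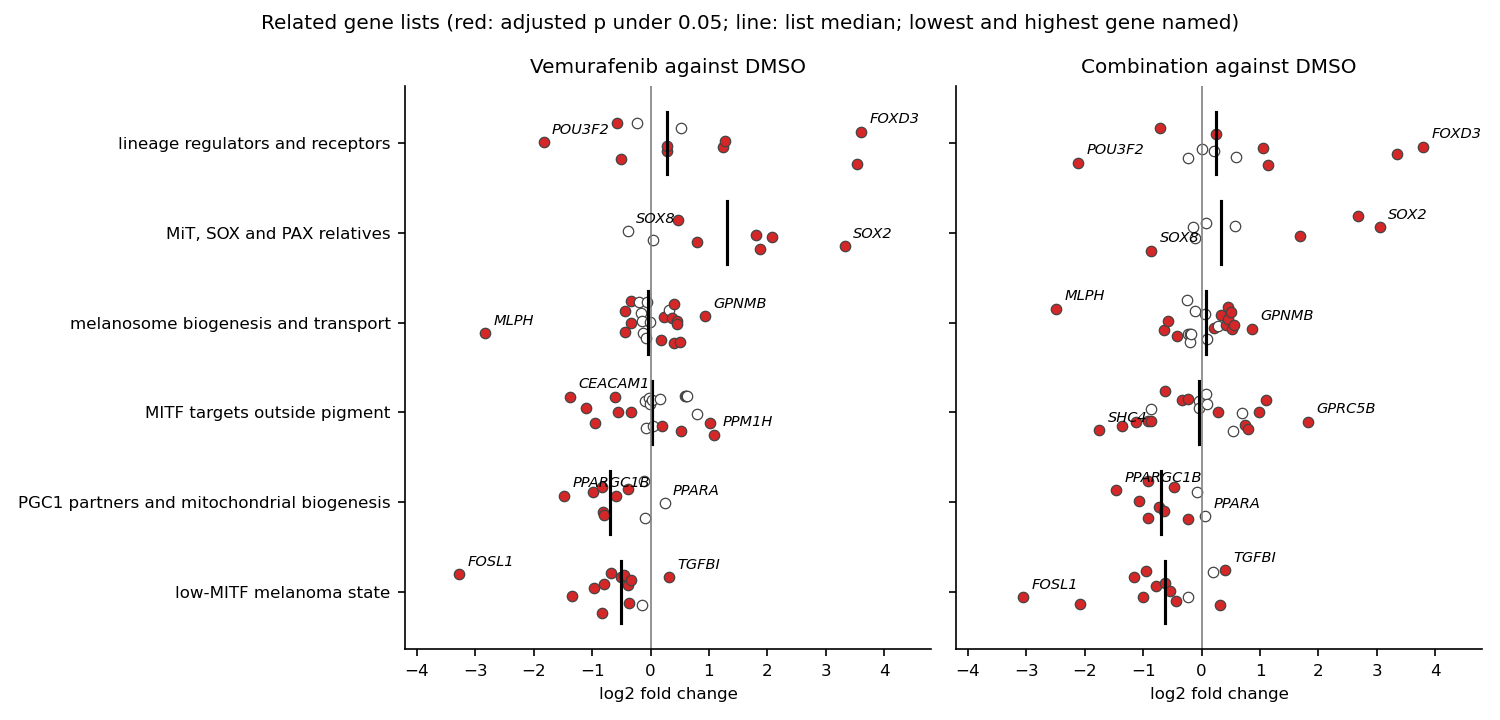
Log2 fold changes of the tested genes of 6 related lists with vemurafenib and with the combination against DMSO; red points have an adjusted p under 0.05, vertical lines are list medians, and the lowest and highest gene of each list are named. The medians of the mitochondrial list (-0.69 in both) and of the low-MITF list (-0.51 and -0.63) lie left of 0, and that of the factor relatives with vemurafenib at 1.31.

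Markers of other skin and stromal cells were counted in this cell line as well. Of 10 markers of keratinocytes, fibroblasts, leukocytes and endothelium 8 were tested, with 4 higher and 1 lower with vemurafenib and with the combination, and 2 higher and none lower with tretinoin, beside 26.4% and 26.3%, 27.1% and 26.5%, and 3.48% and 2.2% of all tested genes. Their summed level was 24.6 to 29.1 CPM with DMSO, 33.3 to 36.4 with tretinoin, 45.6 to 49.6 with vemurafenib and 43.7 to 52.6 with the combination. Of the keratinocyte markers, KRT1 was at 0 in every library. Mean KRT14 was 11.02 CPM with DMSO, 9.74 with tretinoin, 26.05 with vemurafenib and 27.4 with the combination. Mean KRT5 was 3.3, 2.5, 4.1 and 2.4 CPM in the same order. The other markers did not move together. Mean COL1A1 was 3.39, 2.54, 8.44 and 5.26 CPM, and COL3A1 0.084, 0.104, 0.386 and 0.2385. DCN was at 0.618, 0.395, 1.165 and 0.754 CPM, and LUM at 1.07, 1.40, 3.65 and 3.40. The leukocyte marker PTPRC was at 1.11, 3.03, 2.80 and 3.74 CPM. Of the endothelial markers, PECAM1 was at 0.960, 1.68, 0.5215 and 0.598 CPM, and CDH5 at 4.56, 13.4, 0.137 and 3.15. The part of these markers in the changes above was not tested.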

How the data were processed

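RNA-seq of 12 A375 samples was analysed. The authors made poly(A)-selected, strand-specific libraries, aligned reads to GRCh38.p10 with STAR 2.5.3a and counted fragments per GENCODE 27 gene in union mode with strand ignored. The deposited values are raw counts, 1 library per file, and fragments over exons of several genes count for none. Treatments and replicate numbers came from the sample labels.

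The 16740 genes that passed filterByExpr were TMM-normalized and fitted in 1 quasi-likelihood model with a term per treatment in edgeR 4.0.16 (R 4.3.3). The fit was tested on simulated data. Exon lengths, positions and overlaps came from GENCODE 29 (58084 of 58347 genes), shared exon sequence from blastn, and intervals of count ratios from exact conditional binomials. Alternatives were DESeq2 1.42.0, other scaling and filters, only the groups compared, a replicate block, and each sample left out.

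The 10 genes and all lists were chosen with earlier results of these data known. From each list, besides the drug response and other cell type markers, up to 3 called genes per direction and comparison with DMSO, by smallest p, were named, and the 5 genes nearest to MITF, of which 1 is not reported here.

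Replicate numbers did not pair samples across treatments (mean correlation of deviations -0.031 over 18 same-numbered pairs), and counts differed between every pair of replicates by more than sampling noise (chi-square per degree of freedom 2.56 to 21.8).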

Additional observations from a re-analysis of the deposited data

Results flagged for a closer look

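None of the 10 melanocyte genes was set apart for a closer look. Treatments had 3 samples each, too few for the test of single outlying samples. Among the 107 tested of 127 genes in the lists, 4 had an interaction of the drugs at an adjusted p under 0.05 by edgeR, beside 0.806% of all tested genes, so that the difference made by tretinoin was not the same with and without vemurafenib. TBX2, a T-box factor of melanocytes, had an interaction of 0.98 on the log2 scale, with 30.1 ± 3.73 CPM in DMSO, 25.3 ± 2.91 with tretinoin, 21.2 ± 1.66 with vemurafenib and 35.2 ± 2.94 with the combination (SD, n = 3). CDH5, an endothelial cadherin, had an interaction of 2.88, with 4.56 ± 0.533, 13.4 ± 2.22, 0.137 ± 0.0741 and 3.15 ± 0.599 CPM in the same order. The vemurafenib samples held 8 counts of CDH5 in all, so the size of its interaction rests on a group near 0. SOX5, a SOX factor that competes with SOX10 at pigment promoters, had an interaction of -0.67, with 81.2 ± 8.32, 99.2 ± 5.12, 112 ± 13.7 and 86.0 ± 6.64 CPM. JUN, an AP-1 subunit of the low-MITF list, had an interaction of 0.74, with 85.4 ± 14.2, 75.6 ± 11.6, 66.0 ± 6.69 and 97.4 ± 1.37 CPM. With each sample left out in turn, TBX2 and CDH5 were called in 12 of 12 fits, SOX5 in 7 and JUN in 5.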

How the results depend on the processing

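MITF and TYRP1 kept their direction and calls with vemurafenib and the combination under every alternative that tested them. TYRP1 was not tested with at least 10 counts in every sample, and that filter left 1 gene called with vemurafenib, 1 with the combination and 1 in the combination against tretinoin. With each sample left out, 3 to 4 of the 10 genes were called with vemurafenib and 2 to 4 with the combination. The count was 4 in both without DMSO replicate 2. These counts include DCT, which passed the filter only through the groups where it was high and so had to differ, and no support is drawn from them. TYRP1 and PPARGC1A also passed the filter only through samples with vemurafenib. Without a filter TYRP1 kept its calls and PPARGC1A was not called. The other added call was PPARGC1A, without DMSO replicate 2 in both comparisons and without combination replicate 3 in the latter. Among only the groups compared, 1 gene (MITF) was called in the combination against vemurafenib. Differences that changed sign were not called: SOX9 ran from -0.45 to 0.25 with tretinoin, from -0.73 to 0.20 with vemurafenib and from -0.45 to 0.25 with the combination over the left-out samples (without vemurafenib replicate 3 it was 0.05), TYRP1 with tretinoin from -0.26 to 0.20 and -0.00 without a filter, PMEL with tretinoin from -0.09 to 0.32, and PAX3 with vemurafenib was 0.12 with the library size alone. The causes were not tested.

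The replicate number as a block changed no call among the 10 genes. Among the other named genes it ended the tretinoin calls of SNAI2 (0.93, adjusted p = 0.0558) and TNC (0.41, adjusted p = 0.0511). It moved the tretinoin counts from 583 higher and 368 lower to 429 and 219. They were 234 and 71 with only the groups compared, 736 and 804 without a filter, 273 and 106 without DMSO replicate 2, 400 and 219 without tretinoin replicate 2, and 711 and 656 without tretinoin replicate 3. The combination against vemurafenib, 380 higher and 369 lower, gave 584 and 685 with only the groups compared and 254 to 343 higher and 203 to 271 lower with a sample left out. The higher share of tretinoin calls, 61.3%, was 50.6% by DESeq2 with a prior and 47.8% without a filter. The tretinoin calls of EDNRB, HPS6 and RAB38 were lost in 3, 5 and 1 of 14 alternatives, and the combination call of TFEC in 3 of 12. The interaction called 64 higher and 71 lower genes, 39 and 36 with the block, 126 and 150 by DESeq2, 389 and 221 without a filter, 33 and 27 without DMSO replicate 2 and 121 and 144 without tretinoin replicate 1. Few counts limit DCT, MLANA, TYR, PPARGC1A and SOX9, whose standard errors or intervals span several-fold changes.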
